A study of Drosophila melanogaster with 4 samples.

Results

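Aminoacyl-tRNA synthetases were examined in ribosome footprints of Drosophila melanogaster ovaries. The members were the genes whose Release 6 symbol is a 3-letter amino acid code, or GluPro, followed by RS, with or without the suffix -m, which marks the mitochondrial enzymes. This rule found 33 genes among the 17438 genes or joint loci named in the files, 18 without the suffix and 15 with it, and all 33 were among the 7783 genes tested. The libraries were 2 from RpS5b mutant females and 2 from wildtype females. RpS5b encodes a paralog of the small-subunit ribosomal protein S5, and the labels give neither the allele nor a treatment. Ovaries of young females kept at 25 °C were dissected by hand 48 hours after eclosion, and egg chambers of stages 10 to 14 were removed from the control ovaries. The labels say this of the control ovaries and do not mention it for the mutant ones. Nor do they say whether the replicate libraries were made from different females, so a p-value here reflects how far replicate libraries differed, and that spread may be technical.

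Each aminoacyl-tRNA synthetase joins an amino acid to the tRNAs that read its codons, and the charged tRNA is then carried to the ribosome by an elongation factor. Cytoplasmic synthetases serve the translation of nuclear genes, and a second set, also encoded in the nucleus, is imported into mitochondria to serve the ribosomes there. Uncharged tRNA, which accumulates when charging fails, activates the kinase Gcn2 and through it the transcription factor ATF4, called crc in flies. In the ovary the germline makes large amounts of protein for the egg, and the surrounding follicle cells make yolk, vitelline membrane and eggshell proteins.

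The library totals lay between 3122299 and 13942184 reads, and the counts over protein-coding genes between 1053576 and 4600113. RpS5b itself had 10 and 9 counts in the mutant libraries, against 287 and 342 in the wildtype libraries (log2 fold change -6.42, SE 0.288, adjusted p = 2.58e-05 by edgeR's quasi-likelihood test). The germline markers vas, nanos, osk, bam, grk and aub were all present and summed to 272 and 304 CPM in the mutant libraries, against 323 and 305 CPM in the wildtype libraries. CPM are read counts brought to a common library size by TMM, edgeR's trimmed-mean scaling. In that list aub rose, nanos and osk fell, and the other 3 did not pass the test. Yolk and vitelline membrane genes of follicle cells summed to 6905 and 5789 CPM in the mutant libraries, against 3170 and 1879 in the wildtype libraries, and 5 of 6 rose. Chorion genes of late egg chambers summed to 1600 and 1123 CPM in the mutant libraries, against 7092 and 4797 in the wildtype libraries, and 9 of 9 fell. Every synthetase value below was measured beside these shifts in follicle cell and chorion footprints, and their part in the results was not tested.

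Footprints per gene length separated the synthetases without the suffix from those with it. In each library the values are CPM per kilobase of transcript, a level that can be set between genes. The median of the 18 genes without -m was 35.8 and 33.6 in the mutant libraries, against 40.1 and 32.6 in the wildtype libraries. The median of the 15 -m genes was 3.01 and 3.41 in the mutant libraries, against 3.84 and 4.58 in the wildtype libraries. By mean level over the libraries all 18 ranked above all 15. Among protein-coding genes tested, the genes without -m lay between percentile 76.6 and percentile 94.0, and the -m genes between percentile 14.3 and percentile 60.7.

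SerRS, the enzyme for serine, had the highest level, at 90.8 and 98.1 in the mutant libraries against 93.2 and 83.0 in the wildtype libraries. ThrRS, for threonine, followed at 90.7 and 86.9 in the mutant libraries against 83.6 and 77.6 in the wildtype libraries. The levels of SerRS and ThrRS overlapped in wildtype. Within each library SerRS lay above ThrRS, though only at 90.77 against 90.75 in mutant replicate 1. ThrRS also has a transcript of 2298 nt with nearly the same counts as the 2520 nt one used. Levels per length depend on that choice, so these libraries do not settle the order of SerRS and ThrRS. AlaRS, for alanine, had 63.9 and 55.9 in the mutant libraries against 77.8 and 66.0 in the wildtype libraries, and AsnRS, for asparagine, 66.7 and 63.2 in the mutant libraries against 66.8 and 58.5 in the wildtype libraries. AlaRS and AsnRS overlapped in wildtype and in the mutant, and both lay below SerRS and ThrRS in every library. At the lower end of the set without -m, TrpRS, for tryptophan, had 23.2 and 22.3 in the mutant libraries against 13.5 and 15.9 in the wildtype libraries. TrpRS was the lowest of the 18 in both wildtype libraries, while in both mutant libraries GlnRS, for glutamine, was the lowest, at 19.03 and 16.7 against 28.2 and 23.6 in the wildtype libraries.

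Among the -m genes AspRS-m, for mitochondrial aspartate, had the highest level, at 9.79 and 10.2 in the mutant libraries against 9.13 and 7.76 in the wildtype libraries. TrpRS-m followed at 9.10 and 7.67 in the mutant libraries against 7.75 and 6.83 in the wildtype libraries, and PheRS-m at 7.95 and 6.69 in the mutant libraries against 5.09 and 5.68 in the wildtype libraries. AspRS-m and TrpRS-m nearly touched in wildtype, TrpRS-m and PheRS-m overlapped in the mutant, and PheRS-m was the lowest of the 3 in both wildtype libraries. SerRS-m had the lowest mean level, at 1.68 and 1.21 in the mutant libraries against 1.52 and 2.38 in the wildtype libraries, and it overlapped with GluRS-m in wildtype and with ArgRS-m in both genotypes. With the transcripts used, serine had the gene with the highest mean level in the cytoplasmic set and the gene with the lowest in the -m set. Both places depend on the transcripts chosen. The SerRS-m transcript used (2552 nt) had 12 counts in wildtype replicate 1, against 11 for a transcript of 1479 nt. Their counts were equal in the other libraries, so the shorter transcript would give SerRS-m a higher level per kilobase.

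**Figure D1:**
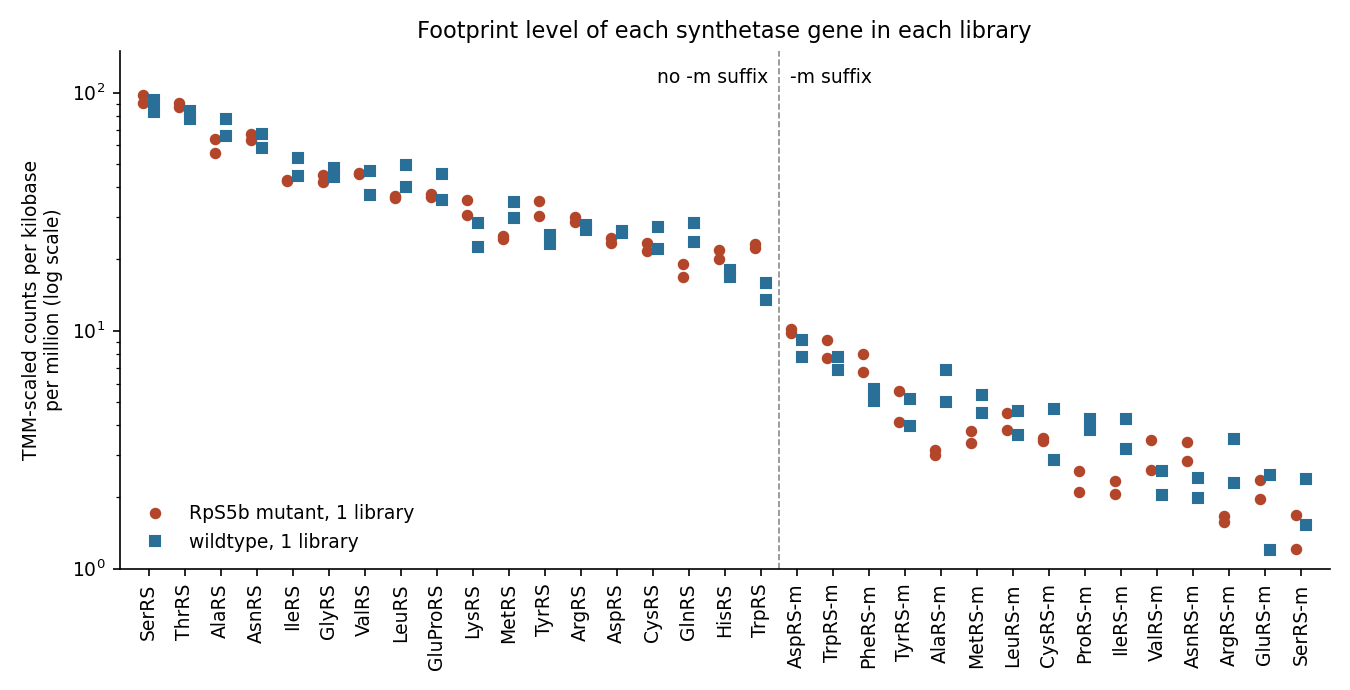
The vertical axis gives the footprint level in CPM per kilobase on a log scale, and each point is 1 library of 1 gene, ordered by mean level within each set. All genes without -m lie above all -m genes by mean level, from SerRS down to TrpRS and from AspRS-m down to SerRS-m.

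The genes were spread over the large chromosomes in the Release 6 coordinates (BDGP6) of the files. Chromosome arm 3L held 10 of the 33, 7 of them -m genes, and the X chromosome held 3, none of them a -m gene. TyrRS at 3L:16417349-16419302 and GluRS-m at 3L:16415292-16417177 were the closest neighbours, both on the minus strand with 171 nt between them. The spliced transcripts that stand for the genes had a median of 2454 nt in the set without -m (1683 to 5405) and of 1934 nt in the -m set (1482 to 3899). AspRS shares 1448 nt and GluProRS 905 nt with antisense RNA genes on the opposite strand, and without a known strand setting such reads cannot be told apart.

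Over the whole set, few synthetase genes passed the test for a change between the genotypes. By edgeR's quasi-likelihood test with Benjamini-Hochberg adjustment over all genes, 6 of 33 passed an adjusted p of 0.05, or 18.2%, against 41.3% of all genes tested. TrpRS and TyrRS rose, or 2 of 33 against 20.5% of all genes. GlnRS, AlaRS-m, IleRS-m and ProRS-m fell, or 4 of 33 against 20.9% of all genes. The median log2 fold change, mutant over wildtype, was -0.01 for the 33 genes and 0.03 for all genes tested. The CPM of the 2 genotypes did not overlap for 21 of 33 genes, or 63.6%, against 71.8% of all genes tested. A bulk footprint count cannot tell fewer cells of a type from less RNA per cell, nor less mRNA from fewer ribosomes on it.

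The log2 fold changes of the set without -m covered a narrow range. In it 2 genes rose, 1 fell and 15 did not pass, with values from -0.53 to 0.62 and a median of -0.01. The standard errors ran from 0.126 to 0.174, and the 95% interval of each of the 18 genes lay inside a 2-fold change in either direction, with outer limits of -0.88 and 0.95. For 6 genes both mutant libraries lay above both wildtype libraries, and for 6 below, or 66.7% of the set. Of all genes tested 71.8% were separated in this way, 37.5% with the mutant above and 34.3% with it below. In the -m set 0 genes rose by edgeR's quasi-likelihood test (0 at an unadjusted p under 0.05, and 0 by DESeq2), 3 fell and 12 did not pass. Thus 16.7% of the set without -m and 20% of the -m set were called, against 41.3% of all genes tested. Of all genes 20.5% rose and 20.9% fell. The genotypes did not overlap for 9 of the 15 -m genes, or 60%, with the mutant above for 4 and below for 5. The log2 fold changes of the -m set ran from -0.91 to 0.52 with a median of -0.01. Counts were lower there, the standard errors ran from 0.140 to 0.382, and the intervals of 8 of 15 genes lay inside a 2-fold change. The intervals of the others reached past it, as far as -1.49 for ArgRS-m and 1.23 for GluRS-m, so a change of more than 2-fold lies within them.

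**Figure D2:**
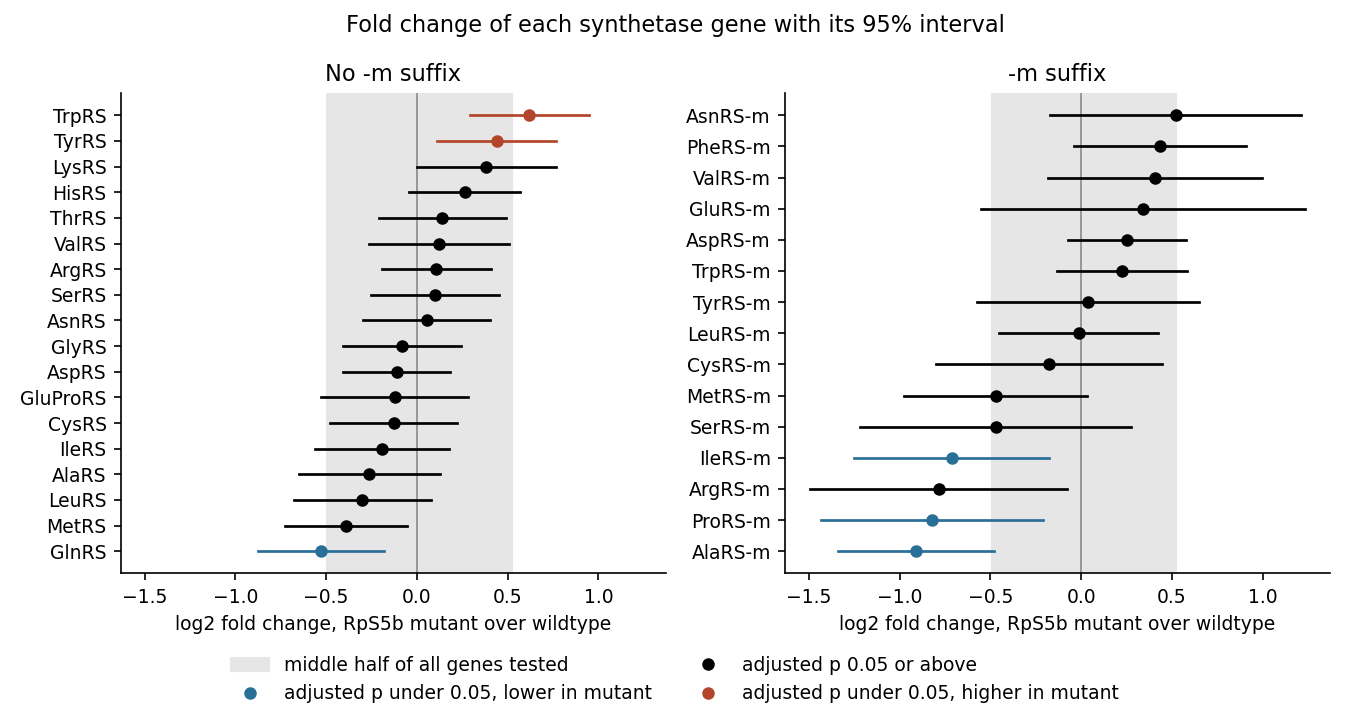
The horizontal axis gives the log2 fold change of each synthetase gene, mutant over wildtype, with its 95% interval, and the grey band holds the middle 50% of all genes tested, from -0.49 to 0.53. TrpRS and TyrRS stand at the top of the set without -m and GlnRS at its bottom, and AlaRS-m stands at the bottom of the -m set with an interval from -1.34 to -0.48.

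TrpRS (3R:9265027-9266904, minus strand, 4 exons) had 502 and 327 counts in the mutant libraries, against 70 and 145 in the wildtype libraries. Scaled for depth this was 39.0 and 37.5 CPM in the mutant libraries, against 22.7 and 26.7 CPM in the wildtype libraries, and the genotypes did not overlap. TrpRS averaged 38.3 ± 1.06 CPM in the mutant and 24.7 ± 2.89 CPM in wildtype (SD, n = 2 each). Its log2 fold change was 0.62 (SE 0.141, adjusted p = 0.0110 by edgeR's quasi-likelihood test). With DESeq2 the TrpRS call was lost, at a log2 fold change of 0.59 and an adjusted p of 0.0922.

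TyrRS, the enzyme for tyrosine, had 61.9 and 53.8 CPM in the mutant libraries, against 44.7 and 40.9 CPM in the wildtype libraries. Both mutant libraries lay above both wildtype libraries. The log2 fold change of TyrRS was 0.44 (SE 0.141, adjusted p = 0.0403 by edgeR's quasi-likelihood test). The TyrRS call was lost with DESeq2 (adjusted p = 0.2433), with scaling by total counts (adjusted p = 0.0989) and with thinned libraries (adjusted p = 0.0830). In edgeR it was also lost when wildtype replicate 1 was left out (log2 fold change 0.50, adjusted p = 0.0756), likewise wildtype replicate 2 (0.36, adjusted p = 0.1776) or mutant replicate 1 (0.31, adjusted p = 0.2424). TrpRS and TyrRS are related class I enzymes that bind aromatic amino acids.

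GlnRS (3R:25263267-25265721, minus strand, 1 exon) had 601 and 358 counts in the mutant libraries, against 214 and 314 in the wildtype libraries. That was 46.7 and 41.1 CPM in the mutant libraries, against 69.2 and 57.9 CPM in the wildtype libraries, with no overlap. The means were 43.9 ± 3.99 CPM in the mutant and 63.6 ± 8.02 CPM in wildtype (SD, n = 2 each), and GlnRS fell by 0.53 on the log2 scale (SE 0.150, adjusted p = 0.0264 by edgeR's quasi-likelihood test). GlnRS was no longer called with DESeq2 (adjusted p = 0.0919), and in edgeR with scaling by total counts (log2 fold change -0.49, adjusted p = 0.1031), without wildtype replicate 1 (log2 fold change -0.40, adjusted p = 0.1118) or without mutant replicate 2 (-0.43, adjusted p = 0.1037).

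In the set without -m, LysRS, for lysine, and MetRS, for methionine, missed the threshold by the least. LysRS had 76.7 and 66.1 CPM in the mutant libraries, against 61.5 and 48.7 CPM in the wildtype libraries, and a log2 fold change of 0.38 (SE 0.163, adjusted p = 0.0972 by edgeR's quasi-likelihood test). MetRS had 84.9 and 82.4 CPM in the mutant libraries, against 118 and 101 CPM in the wildtype libraries, and a log2 fold change of -0.39 (SE 0.144, adjusted p = 0.0629 by the same edgeR test). The genotypes did not overlap for either gene, and the intervals of LysRS and MetRS left out 0 although the adjusted p-values missed the threshold.

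In human cells 8 of these enzymes (ArgRS, AspRS, GlnRS, GluProRS, IleRS, LeuRS, LysRS and MetRS) are held in the multisynthetase complex, a particle that gathers synthetases around scaffold proteins. In the fly ovaries 0 of these 8 rose by edgeR's quasi-likelihood test (1 at an unadjusted p under 0.05, and 0 by DESeq2) and GlnRS fell, with a median log2 fold change of -0.16 and 6 of 8 values below 0. Beside MetRS and GlnRS, LeuRS had -0.30 (SE 0.162), IleRS -0.19 (SE 0.158), GluProRS -0.12 (SE 0.174) and AspRS -0.11 (SE 0.126), all with intervals that reach across 0. ArgRS had 0.11 (SE 0.129). Of the 10 genes outside that complex 2 rose and 0 fell by edgeR's quasi-likelihood test (0 at an unadjusted p under 0.05, and 0 by DESeq2), with a median of 0.11. By the edgeR test 12.5% of the 8 genes and 20% of the 10 were called, against 41.3% of all genes tested. Of all genes 20.5% rose and 20.9% fell. With DESeq2 none of the 18 genes was called. The difference between these medians was not tested.

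The other genes outside the complex had small values. HisRS, for histidine, had 0.26 (SE 0.132), and its transcript shares 255 nt with Bx on the same strand, so some reads may belong to either gene. AlaRS had -0.26 (SE 0.166), ThrRS 0.14 (SE 0.150), CysRS -0.13 (SE 0.150), ValRS 0.12 (SE 0.165), SerRS 0.10 (SE 0.151), GlyRS -0.08 (SE 0.140) and AsnRS 0.05 (SE 0.150). SerRS, ThrRS and AlaRS were measured on 510 to 2942 counts per library without passing the test. Synthetases fall into class I and class II by the fold of their catalytic domain. In the set without -m, leaving out GluProRS, 2 of the 9 class I genes rose and 1 fell, and of the 8 class II genes 0 passed by edgeR's quasi-likelihood test (1 was higher at an unadjusted p under 0.05). Of these class I genes 33.3% were called, against 41.3% of all genes tested. In the -m set 1 of the 9 class I genes (11.1%) and 2 of the 6 class II genes (33.3%) were called by the edgeR test, all lower. With DESeq2 0 genes of either class passed in the set without -m, and 1 class II gene passed in the -m set. The differences between the classes were not tested.

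GluProRS, which fuses the enzymes for glutamate and proline in a single protein, was the only member whose transcripts differed by more than 5% in mean count. Its longest transcript (5405 nt) had 2607 and 1723 counts in the mutant libraries, against 759 and 1035 in the wildtype libraries. A shorter transcript of 3151 nt, all but 48 nt of it contained in the longer one, had 1829 and 1267 counts in the mutant libraries, against 517 and 721 in the wildtype libraries. The counts of the longer GluProRS transcript minus those of the shorter one stood for the 2302 nt found only in the longer one. Any reads in the 48 nt outside the longer transcript were subtracted as well. The difference was 29.8% and 26.5% of the longer transcript's counts in the mutant libraries, against 31.9% and 30.3% in the wildtype libraries. Per kilobase, it was 0.582 and 0.493 times the counts of the shorter transcript in the mutant libraries, against 0.641 and 0.596 times in the wildtype libraries. Both ratios were lower in both mutant libraries than in both wildtype libraries, and neither was tested; the 2 mutant libraries of GluProRS differed by more than the gap between the genotypes.

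AlaRS-m (3L:5146098-5149852, plus strand, 10 exons), which charges mitochondrial alanine tRNA, had the lowest log2 fold change of the 33. It had 125 and 89 counts in the mutant libraries, against 68 and 88 in the wildtype libraries, which is 9.72 and 10.2 CPM in the mutant against 22.004 and 16.2 CPM in wildtype. The mutant libraries lay close together and below both wildtype libraries. AlaRS-m averaged 9.96 ± 0.35 CPM in the mutant and 19.1 ± 4.09 CPM in wildtype (SD, n = 2 each) and fell by 0.91 on the log2 scale (SE 0.185, adjusted p = 0.0067 by edgeR's quasi-likelihood test). The AlaRS-m call was kept in 13 of 13 alternative settings, with log2 fold changes from -1.19 to -0.71.

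IleRS-m, for mitochondrial isoleucine, had 87 and 52 counts in the mutant libraries, against 38 and 50 in the wildtype libraries, or 6.76 and 5.97 CPM in the mutant against 12.3 and 9.22 CPM in wildtype. It fell by 0.71 on the log2 scale (SE 0.230, adjusted p = 0.0415 by edgeR's quasi-likelihood test). The IleRS-m genotypes did not overlap, and the call was lost with DESeq2 (adjusted p = 0.1301), with scaling by total counts (adjusted p = 0.0556) and in edgeR when wildtype replicate 1 (log2 fold change -0.53, adjusted p = 0.165), mutant replicate 1 (-0.84, adjusted p = 0.0552) or mutant replicate 2 (-0.63, adjusted p = 0.0772) was left out. ProRS-m, for mitochondrial proline, had 41 and 34 counts in the mutant libraries, against 18 and 35 in the wildtype libraries, or 3.19 and 3.90 CPM in the mutant against 5.82 and 6.45 CPM in wildtype. It fell by 0.82 on the log2 scale (SE 0.263, adjusted p = 0.0404 by edgeR's quasi-likelihood test), with no overlap. The ProRS-m call was lost with DESeq2 (adjusted p = 0.1735), with scaling by total counts (adjusted p = 0.0608) and in edgeR when wildtype replicate 1 (-0.88, adjusted p = 0.0822), wildtype replicate 2 (-0.75, adjusted p = 0.1985) or mutant replicate 1 (-0.69, adjusted p = 0.1746) was left out.

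Of the -m genes that did not pass, ArgRS-m had 3.03 and 3.21 CPM in the mutant libraries against 6.80 and 4.43 CPM in the wildtype libraries, and a log2 fold change of -0.78 (SE 0.303, adjusted p = 0.0734 by edgeR's quasi-likelihood test). MetRS-m had -0.47 (SE 0.216) and SerRS-m -0.47 (SE 0.320). On the other side AsnRS-m had 0.52 (SE 0.296), PheRS-m 0.44 (SE 0.203), ValRS-m 0.40 (SE 0.253) and GluRS-m 0.34 (SE 0.382). The mutant libraries of ArgRS-m and MetRS-m lay below both wildtype libraries, and those of AsnRS-m, AspRS-m, PheRS-m and ValRS-m lay above them. For ValRS-m the genotypes nearly touched, at 8.16 CPM in mutant replicate 1 against 8.09 CPM in wildtype replicate 1. AspRS-m (0.25, SE 0.140), TrpRS-m (0.23, SE 0.154), TyrRS-m (0.04, SE 0.261), LeuRS-m (-0.01, SE 0.187) and CysRS-m (-0.18, SE 0.267) completed the set.

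Taken as sums, both sets held a slightly smaller share of protein-coding counts in the mutant libraries. These shares are not TMM-scaled, and a share falls when other genes take more of the counts. Ribosomal protein genes held 10.1% and 8.30% in the mutant libraries, against 4.24% and 4.01% in the wildtype libraries, and their part in the sums was not tested. The 18 genes without -m held 0.572% and 0.562% of protein-coding counts in the mutant libraries, against 0.656% and 0.599% in the wildtype libraries, so both mutant libraries were lower. The 15 -m genes held 0.0404% and 0.0422% in the mutant libraries, against 0.0463% and 0.0462% in the wildtype libraries, again lower in both mutant libraries. The ratio of the first sum to the second was 14.2 and 13.3 in the mutant libraries, against 14.2 and 13.0 in the wildtype libraries, and the genotypes overlapped.

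For 12 amino acids a gene without -m that serves that amino acid alone and a -m gene were both measured. Glutamate and proline, which share GluProRS and have GluRS-m and ProRS-m, were left out of these pairs. The level of the gene without -m over that of its partner ran from 1.74 for tryptophan to 80.8 for serine over the libraries. The serine value rests on the 2552 nt transcript of SerRS-m and would be smaller with the 1479 nt one. The ratio was higher in both mutant libraries for 4 amino acids, lower in both for 3, and overlapped for 5. The ratios were described and not tested, and no such count was made for ratios of other genes. For single genes the CPM of the genotypes did not overlap for 71.8% of all genes tested, so separation alone was common. For alanine it was 21.3 and 17.7 in the mutant libraries against 11.4 and 13.2 in the wildtype libraries, and for arginine 18.2 and 18.0 in the mutant against 7.89 and 11.6 in wildtype. For isoleucine it was 18.4 and 20.7 in the mutant against 12.5 and 14.0 in wildtype, and for tryptophan 2.55 and 2.91 in the mutant against 1.74 and 2.33 in wildtype. In the alanine, arginine and isoleucine pairs the -m gene had the larger log2 fold change in size, below 0 in each, while in the tryptophan pair it was the gene without -m.

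The lower ratios were those of asparagine, aspartate and valine. For asparagine the ratio was 23.6 and 18.5 in the mutant libraries against 27.8 and 29.4 in the wildtype libraries. For aspartate it was 2.52 and 2.29 in the mutant against 2.82 and 3.37 in wildtype, and for valine 17.5 and 13.2 in the mutant against 18.3 and 18.1 in wildtype. The log2 fold changes of the 2 genes of a pair were both above 0 for 4 amino acids, both below 0 for 5 and of opposite sign for 3.

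**Figure D3:**
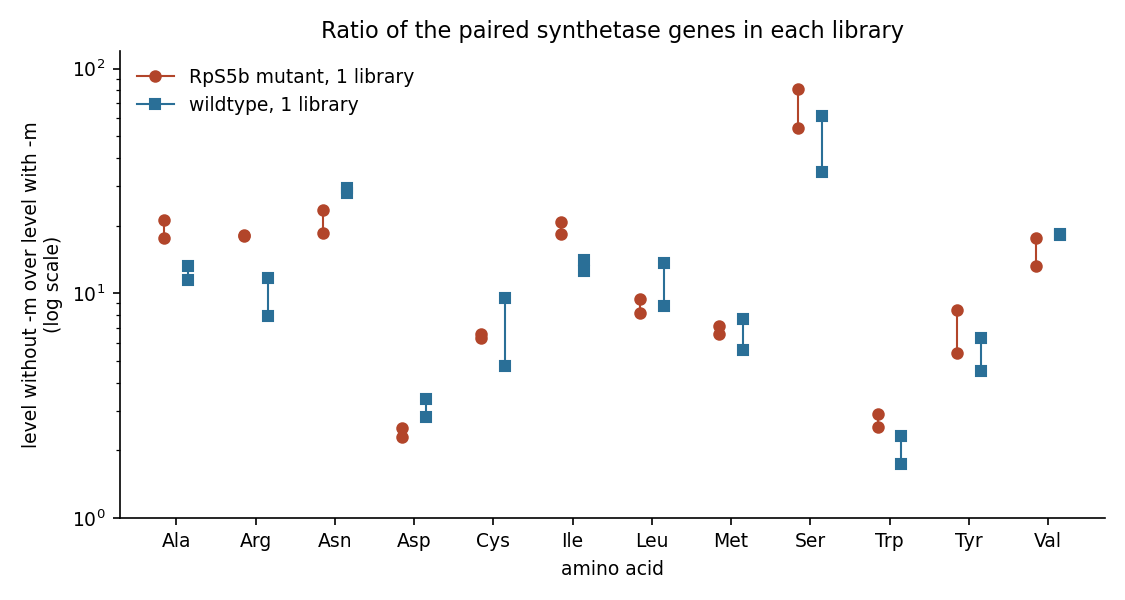
The vertical axis gives, on a log scale, the level of the gene without -m over that of the -m gene for 12 amino acids, with 1 point per library and a line joining the 2 libraries of a genotype. The mutant points lie above the wildtype points for alanine, arginine, isoleucine and tryptophan, below them for asparagine, aspartate and valine, and among them for the other 5.

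No -m gene fell under the rule for glutamine, glycine, histidine, lysine or threonine. Mitochondrial glutamine tRNA is charged indirectly in many animals, through an amidotransferase with the subunits GatA, GatB and GatC, and in humans the enzymes for glycine and lysine serve both compartments from a shared gene. The cytoplasmic enzyme for phenylalanine has the subunits alpha-PheRS and beta-PheRS, whose symbols lie outside the rule.

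The ribosomal proteins, the other large group of translation genes, were set beside the synthetases. Of 84 cytoplasmic ribosomal protein genes 79 rose, 2 fell (RpS5b and RpS10a) and 3 did not pass, with a median log2 fold change of 1.42. Of 72 mitochondrial ribosomal protein genes 21 rose and 51 did not pass, with a median of 0.33. Over all genes tested 20.5% rose and 20.9% fell. The synthetase medians of -0.01 in each set lay below both of these, and the difference was not tested. Ribosomal protein genes held 10.1% and 8.30% of protein-coding counts in the mutant libraries, against 4.24% and 4.01% in the wildtype libraries. Their counts over those of the synthetases without -m were 17.7 and 14.8 in the mutant libraries, against 6.46 and 6.69 in the wildtype libraries, so the ratio was higher in both mutant libraries.

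**Figure D4:**
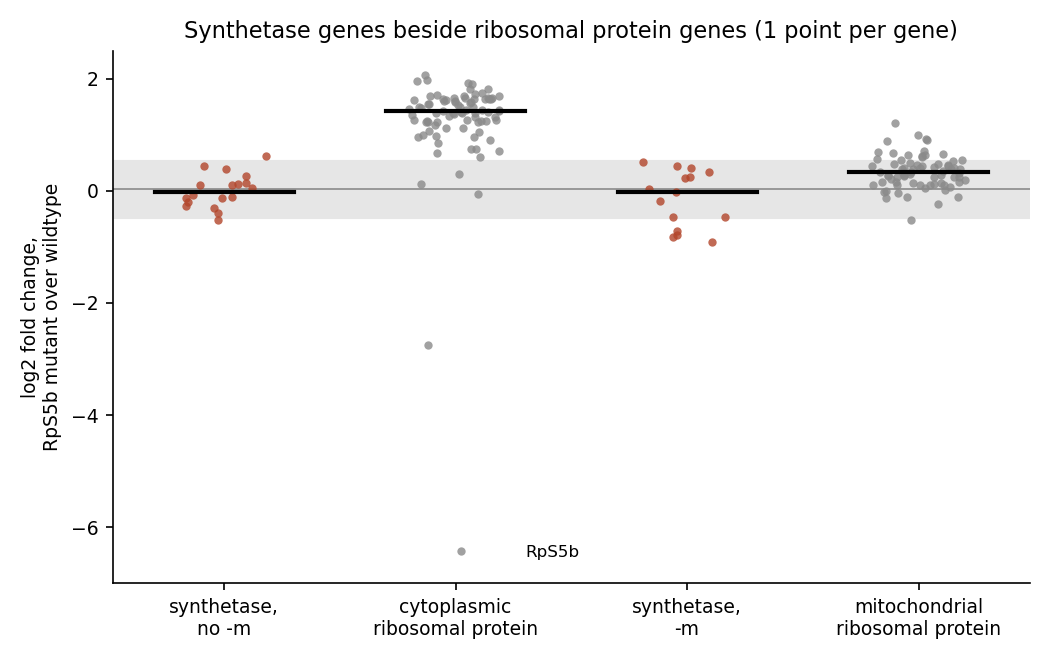
Each point is the log2 fold change of 1 gene, mutant over wildtype, the black bars are medians and the grey band holds the middle 50% of all genes tested. The cytoplasmic ribosomal proteins have a median of 1.42 and the mitochondrial ones of 0.33, while both synthetase sets have medians of -0.01; RpS5b lies at -6.42.

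Scaffold proteins, the phenylalanine enzyme and Slimp made up a list of 6 partner genes. AIMP1, a scaffold of the multisynthetase complex, had 20.8 and 19.05 CPM in the mutant libraries against 16.2 and 13.1 CPM in the wildtype libraries and rose by 0.47 on the log2 scale (SE 0.153, adjusted p = 0.0411 by edgeR's quasi-likelihood test). Slimp, an insect mitochondrial paralog of SerRS that binds RNA and does not charge tRNA, had 7.0 CPM in each of the mutant libraries, against 4.53 and 3.32 CPM in the wildtype libraries, and rose by 0.88 (SE 0.263, adjusted p = 0.0318 by edgeR's quasi-likelihood test). The other scaffolds had 0.23 (AIMP2, SE 0.132) and 0.32 (AIMP3, SE 0.166), and the phenylalanine subunits -0.39 (alpha-PheRS, SE 0.140, adjusted p = 0.0611) and -0.14 (beta-PheRS, SE 0.126). In all, 2 of these 6 genes rose, against 20.5% of all genes, and 0 fell, against 20.9%, by edgeR's quasi-likelihood test (1 was lower at an unadjusted p under 0.05, and 0 were called in either direction by DESeq2), with a median of 0.28. With mutant replicate 1 left out, the log2 fold changes of AIMP1 and Slimp were 0.38 (adjusted p = 0.2148) and 0.85 (adjusted p = 0.0972). With mutant replicate 2 left out they were 0.53 (adjusted p = 0.0541) and 0.89 (adjusted p = 0.0502), and with wildtype replicate 2 left out 0.29 (adjusted p = 0.2815) and 0.61 (adjusted p = 0.2223), so both calls ended in each case. With thinned libraries AIMP1 had 0.12 (adjusted p = 0.6675) and Slimp 0.97 (adjusted p = 0.0735), and with scaling by total counts AIMP1 had 0.53 (adjusted p = 0.0542), none of them called.

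Charged tRNA is carried to the cytoplasmic ribosome by elongation factor 1. Of its 5 genes 1 passed, against 41.3% of all genes. It was eEF1delta, an exchange factor subunit, which rose by 0.59 on the log2 scale (SE 0.153, adjusted p = 0.0186 by edgeR's quasi-likelihood test), and had 220 and 237 CPM in the mutant libraries against 144 and 160 CPM in the wildtype libraries. The eEF1delta call was lost when any 1 of the 4 libraries was left out, at adjusted p-values from 0.0517 to 0.1059 and log2 fold changes from 0.52 to 0.65, and with scaling by total counts (0.65, adjusted p = 0.0552). The tRNA carrier eEF1alpha1 had 2736 and 2124 CPM in the mutant libraries against 1881 and 1286 CPM in the wildtype libraries, with a log2 fold change of 0.62 and an SE of 0.270 (adjusted p = 0.104 by the same test). The paralog eEF1alpha2 had 0.73 (SE 0.323), eEF1beta 0.23 (SE 0.222) and eEF1gamma 0.15 (SE 0.220), and the median was 0.59. None of the 5 fell by edgeR's quasi-likelihood test (0 at an unadjusted p under 0.05, and 0 by DESeq2).

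In mitochondria 1 of 8 measured genes of tRNA amidation, delivery and initiation rose, against 20.5% of all genes. It was mEFTs, the exchange factor that recycles the mitochondrial tRNA carrier, with 43.6 and 45.1 CPM in the mutant libraries against 20.4 and 24.9 CPM in the wildtype libraries. The genotypes did not overlap, and the log2 fold change of mEFTs was 0.95 (SE 0.147, adjusted p = 0.0022 by edgeR's quasi-likelihood test), called in 13 of 13 alternative settings. The list's median was 0.03, and 0 genes fell by the same edgeR test (1 was lower at an unadjusted p under 0.05, and 0 by DESeq2). GatC was listed at 0 counts in the 4 libraries, so the glutamine amidotransferase could be followed only through the other subunits, GatA (0.13, SE 0.301) and GatB (-0.49, SE 0.233), which were named after their values were seen.

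Of the 22 measured genes that process or modify tRNA before it is charged, 11 rose, against 20.5% of all genes. The list was written with earlier results of these data known, so this comparison is not an independent test. The 4 with the smallest p were Nsun2 and Pus1, which methylate and pseudouridylate tRNA, RNaseZ, which trims its 3′ end, and La, which binds newly made transcripts of RNA polymerase III. Nsun2 had 112 and 128 CPM in the mutant libraries against 56.0 and 53.5 CPM in the wildtype libraries, a log2 fold change of 1.13 (SE 0.144). RNaseZ had 25.1 and 27.7 CPM in the mutant libraries against 12.9 and 12.2 CPM in the wildtype libraries, a log2 fold change of 1.07 (SE 0.142). La had 160 and 150 CPM in the mutant libraries against 77.0 and 85.2 CPM in the wildtype libraries (0.93, SE 0.144). For Pus1 the log2 fold change was 0.93 (SE 0.138), and none of the 4 genes overlapped between the genotypes. Their adjusted p-values lay between 0.0010 and 0.0022 by edgeR's quasi-likelihood test. Of the list 0 genes fell by the same edgeR test (0 at an unadjusted p under 0.05, and 0 by DESeq2), and the median was 0.46. The count of 11 became 4 with DESeq2, 6 with the libraries thinned to the smallest, 5 when either wildtype library was left out and 6 when mutant replicate 1 was.

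The Gcn2 and ATF4 pathway was followed through 13 measured genes, of which 5 rose and 1 fell, against 20.5% and 20.9% of all genes, with a median of 0.34. The gene that fell was Gcn2 itself, the kinase that senses uncharged tRNA, with 7.62 and 7.80 CPM in the mutant libraries against 19.1 and 12.9 CPM in the wildtype libraries. Both mutant libraries lay below both wildtype libraries, and Gcn2 fell by 1.01 on the log2 scale (SE 0.222, adjusted p = 0.0094 by edgeR's quasi-likelihood test), called in 13 of 13 alternative settings. The subunits of initiation factor 2, which delivers the initiator tRNA and whose alpha subunit is the kinase's substrate, all rose. The gamma subunit eIF2gamma had 172 and 163 CPM in the mutant libraries against 85.4 and 62.1 CPM in the wildtype libraries, a log2 fold change of 1.19 (SE 0.183). The values were 0.72 for eIF2alpha (SE 0.151) and 0.64 for eIF2beta (SE 0.144), with adjusted p-values from 0.0021 to 0.0101 for these 3 subunits by edgeR's quasi-likelihood test. The eIF2alpha call ended when wildtype replicate 2 was left out (0.64, adjusted p = 0.0531), and the eIF2beta call when wildtype replicate 1 (0.60, adjusted p = 0.0594) or mutant replicate 1 (0.54, adjusted p = 0.0673) was.

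Nmdmc, a folate enzyme that is a target of ATF4 in flies, had 32.9 and 27.8 CPM in the mutant libraries against 12.3 and 14.4 CPM in the wildtype libraries and rose by 1.17 on the log2 scale (SE 0.160, adjusted p = 0.0013 by edgeR's quasi-likelihood test). The ATF4 gene crc and the asparagine synthetase gene AsnS, which fall outside the naming rule and were chosen after their values were seen, did not pass the same test. The log2 fold change of crc was -0.00035 (SE 0.145), with 45.1 and 54.6 CPM in the mutant libraries against 48.5 and 50.9 CPM in the wildtype libraries. That of AsnS was -0.22 (SE 0.133), with both mutant libraries below both wildtype libraries. The count of 5 in this list became 3 when either wildtype library or mutant replicate 1 was left out.

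**Figure D5:**
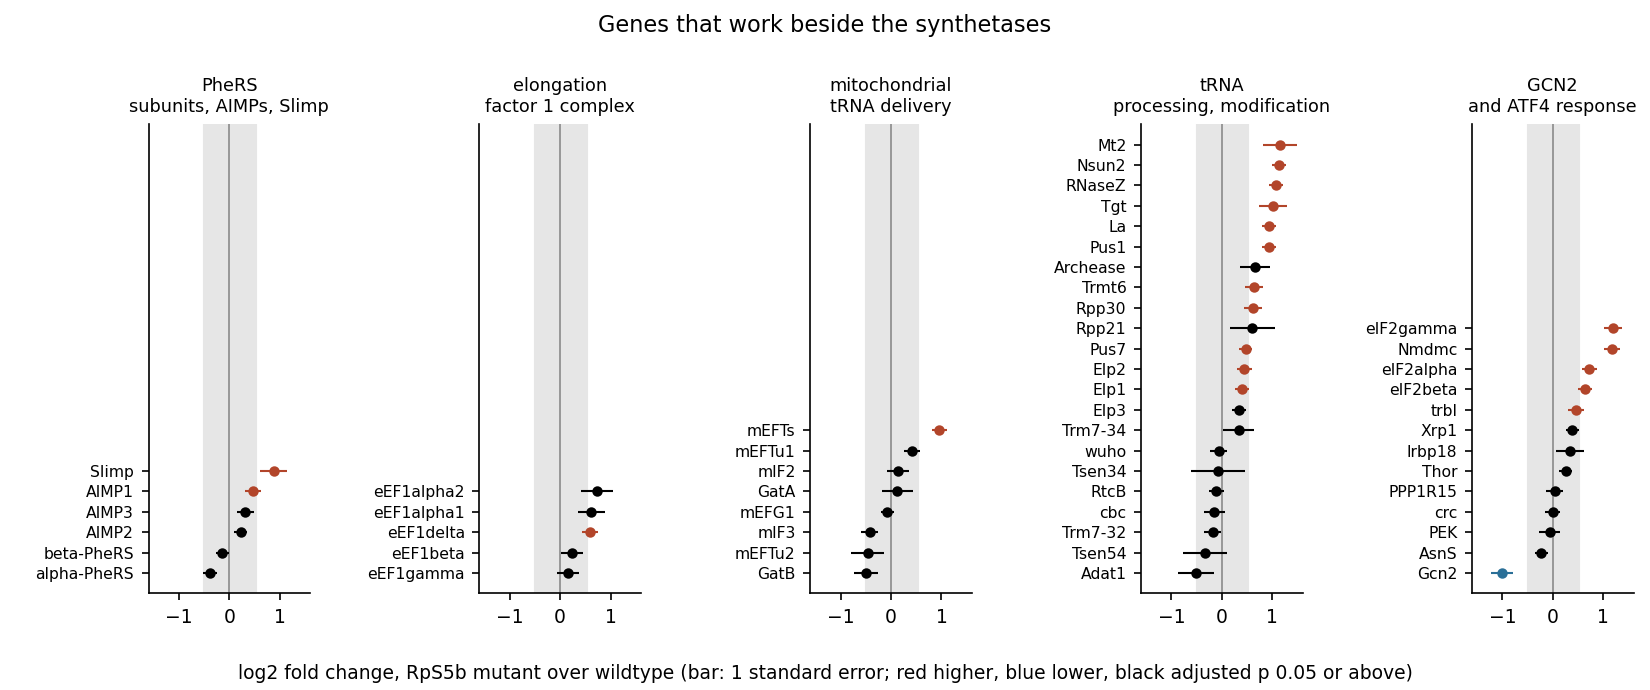
Each panel gives the log2 fold change, mutant over wildtype, of the measured genes of a list, with a bar of 1 standard error and the grey band holding the middle 50% of all genes tested. The tRNA processing list has 11 genes marked higher, and Gcn2 is the only gene marked lower in the 5 lists.

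The tRNAs that the called synthetases charge could be read only in part, because near-identical tRNA copies share reads, and tRNA reads in a footprint library do not report translation. Of 12 tested glutamine tRNA genes 5 were higher in the mutant by edgeR's quasi-likelihood test (4 by DESeq2), against 20.5% of all genes by edgeR, while GlnRS fell. Of the 6 tryptophan and 10 tyrosine tRNA genes 0 passed the same edgeR test in either direction (0 at an unadjusted p under 0.05, and 0 by DESeq2), while TrpRS and TyrRS rose. Of 17 alanine tRNA genes 14 were higher by edgeR (3 by DESeq2), against the same 20.5% of all genes. AlaRS did not pass, and AlaRS-m, which charges a different tRNA, fell.

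Markers of other tissues that a dissected ovary can carry were also read. Muscle markers summed to 181 and 133 CPM in the mutant libraries against 200 and 135 in the wildtype libraries, and 0 of 6 passed by edgeR's quasi-likelihood test (1 at an unadjusted p under 0.05, and 0 by DESeq2). Nerve markers summed to 2.41 and 2.64 CPM in the mutant libraries against 2.27 and 1.66 in the wildtype libraries, with Syt1 and brp at 0 counts, and hemocyte markers to 5.29 and 6.54 CPM in the mutant against 5.18 and 4.61 in wildtype. All 4 gut markers were at 0 counts. Fat body markers summed to 43.8 and 39.7 CPM in the mutant libraries against 20.7 and 16.8 in the wildtype libraries, nearly all of it apolpp, which rose, with Fbp1 and Fbp2 at 0 counts. Their part in the synthetase results was not tested.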

How the data were processed

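Ribosome footprints were measured in 2 RpS5b mutant and 2 wildtype ovary libraries, from gel-selected fragments of 28 to 34 nt per the labels' protocols. The authors deposited, per library, a table of 34729 transcripts. Per the file headers, its counts are reads of 25 to 100 nt placed 12 nt from their 5′ end. The deposited signal is the mean coverage per nucleotide, the deposited RPKM is the count per kilobase scaled to the library's reads, and another deposited column (unit: other) gives the length; only counts and lengths were used. The submitters' processing notes name bedtools 2.26.0, Bowtie 1.0.0, DESeq2, SAMtools 0.1.19 and TopHat2 2.1.2, and the build BDGP6. The sources used here do not say whether counting used strand.

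Transcripts were tied to RefSeq gene symbols by coordinates, which named 34620 (99.69%), and the unnamed ones, 0.0024% to 0.0044% of counts, were left out. The transcript with the highest mean count stands for its gene, the shorter one where they tie, and levels per length depend on that choice. tRNA genes held 54.8% to 63.9% of counts over genes. Genes kept by edgeR's filterByExpr (7783) were scaled by TMM and tested with edgeR 4.0.16's quasi-likelihood test (R 4.3.3), fitting genotype alone, with Benjamini-Hochberg adjustment over all genes. Standard errors follow from the fold change and the F statistic, with 2 residual and 5.51 prior degrees of freedom. An exact permutation test of 2 libraries against 2 cannot go below a two-sided p of 0.333, so calls rest on the spread shared between genes. The same functions were tested on simulated data. Replicates of a group differed by more than sampling noise (chi-square per degree of freedom of 41.2 in the mutant and 15.7 in wildtype).

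The members and lists were chosen with earlier results of these data known. The rule named all members, RpS5b, up to 4 genes per direction with the smallest p in each related list, and every member of lists with 6 or fewer measured genes. Of the listed symbols Mtfmt, mEFG2, Qtrt1 and Psat were not matched, and GatC and P5cr-2 had too few counts to test; 1 other listed gene is not reported here. The alternatives were DESeq2 1.42.0, scaling by total counts, other filters, other transcripts per gene, thinning to the smallest library, a replicate block and leaving out each library. In a further one only protein-coding genes were kept, which changed the library sizes, the genes tested and the spread shared between them. Reads carry no molecular identifiers. Translational efficiency was not computed, since mRNA levels were not analysed here.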

Additional observations from a re-analysis of the deposited data

How the results depend on the processing

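Of the 6 synthetase genes called, AlaRS-m alone was called in 13 of 13 alternative settings, and the share of synthetase genes called lay below the share of all genes called in each. The replicate numbers were shared by the genotypes (correlation of deviations of same-numbered libraries 0.246 over 7783 genes, from 1 pairing only, so the numbers were not taken to pair them). With a replicate block 8 of 33 synthetases were called, all 6 of the earlier calls among them, 2 without -m were lower, and 1 of the partner genes was lower, while 2 elongation factor 1 genes and 2 mitochondrial delivery genes were higher. With DESeq2 0 synthetases were higher and 1 lower (0 and 0 of those without -m, 1 lower with -m), 0 partners and 4 tRNA processing genes were higher, and over all genes 845 were higher. With scaling by total counts 1 synthetase was higher and 1 lower (1 and 0 without -m, 1 lower with -m), and 1 partner and 0 elongation factor 1 genes were higher. With protein-coding genes alone (7102 tested) 2 synthetases without -m and 1 partner were lower. In that setting 3 elongation factor 1 genes and 2 mitochondrial delivery genes were higher, and 1 mitochondrial delivery gene was lower. With no filter 3 elongation factor 1 genes were higher. With at least 10 CPM in 2 libraries 2 synthetases without -m and 1 with -m were lower, 1 partner was higher and 1 lower, and the -m median, over the 5 -m genes this filter kept, was 0.22. With thinned libraries 1 synthetase (without -m), 0 partners and 6 tRNA processing genes were higher, and the -m median was -0.14.

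Leaving out each library in turn gave 1 to 2 synthetases higher and 1 to 3 lower, 1 to 2 higher and 0 to 1 lower without -m, and 1 to 2 lower with -m. The -m median ran from -0.17 to 0.11. Over all genes 1036 to 1412 were higher. Of the related lists 0 to 2 partners, 0 to 1 elongation factor 1 genes, 5 to 8 tRNA processing genes and 3 to 4 Gcn2 pathway genes were higher.

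Among synthetase genes not called, 9 changed sign. LeuRS-m had 0.0678 with total counts, 0.0195 with the replicate block, and -0.1446 to 0.1738 with a library left out, and ValRS-m had -0.0935 with thinned libraries. Over the fits with a library left out AsnRS ran from -0.0545 to 0.1467, CysRS from -0.2893 to 0.0204, GluProRS from -0.3103 to 0.0652, ValRS from -0.0541 to 0.2979, CysRS-m from -0.4292 to 0.2698, GluRS-m from -0.2235 to 0.8352 and TyrRS-m from -0.168 to 0.2494. The cause of these changes was not tested, beyond the lower counts and fewer libraries that thinning and leaving out impose. Counts under 100 per library limit most -m genes.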
